A study of Mus musculus with 24 samples.

Results

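Cortical neurons that had been exposed to 0.1 µM lactacystin for 24 h were set against neurons exposed to the same concentration for 15 h. The comparison holds 6 of the 24 bead arrays of the study, 3 at 24 h and 3 at 15 h, chosen by their titles, and no array of untreated cells enters its fit. Every culture came from Swiss albino mouse fetuses at gestation day 15 or 16, was 5 days old when treated, and received lactacystin from a dimethyl sulfoxide stock diluted in Neurobasal medium. The study also held 3 arrays each at 24, 15, 8 and 5 h of 1 µM lactacystin and 6 arrays of untreated cells, and its title names low and high concentrations of lactacystin and neuronal death. Whether replicate arrays stem from separate cultures is not in the labels, and the p-values below measure the spread between these arrays, which may be technical. A longer exposure and a longer time in culture cannot be told apart here, since the labels give the untreated cells no time point.

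Lactacystin is a Streptomyces product that binds the catalytic subunits of the proteasome, the protease complex that degrades ubiquitin-tagged proteins. Cells whose proteasome is inhibited are known to raise transcripts of heat shock proteins, of NRF2-driven antioxidant enzymes and of proteasome subunits themselves. NRF2 is a transcription factor that is itself degraded by the proteasome, and the factor NRF1 is known to drive proteasome subunit genes when proteasome activity is short. The results below describe which of these transcripts, and which transcripts of neuronal function, differed between the later and the earlier time at the lower dose.

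Total RNA was read as biotin-labelled cRNA on Illumina MouseRef-8 V1.1 arrays, 1 colour, and each level below is a log2 intensity after background correction and quantile normalization, with no unit. The arrays at 24 h had 11723 to 11949 probes detected and a median signal of 52.2 to 61.1, and the arrays at 15 h had 11574 to 12208 probes detected and a median signal of 56.3 to 65.4. The root mean square difference between replicates over genes was 0.216 to 0.293 on the log2 scale. Each of the 3 slides held 1 array of each group, always at the same position, so that position and group cannot be told apart. Of 9 neuron markers with a probe, 7 were detected on at least 3 of the 6 arrays, with Snap25 on 1 array, Nefl on none and Rbfox3 without a probe. The summed intensity of the 9 was 19600 to 22200 at 24 h, 15400 to 17900 at 15 h and 17100 to 20000 in untreated cells. Projection neuron markers summed to 3120 to 3460 at 24 h and 3000 to 3210 at 15 h. Interneuron markers, with Gad2 and Lhx6 on no array, summed to 3660 to 3890 at 24 h and 3610 to 4080 at 15 h. Astrocyte markers summed to 12400 to 12800 at 24 h, 14500 to 16000 at 15 h and 10500 to 15900 in untreated cells, with Slc1a2 on no array. Oligodendrocyte lineage markers summed to 9500 to 10800 at 24 h and 10500 to 10800 at 15 h. Progenitor markers, with Pax6 on no array, summed to 719 to 763 at 24 h and 880 to 940 at 15 h. Microglia markers summed to 84.7 to 100 at 24 h and 106 to 139 at 15 h, and Cx3cr1, Csf1r, Tyrobp and Itgam were detected on no array of either group. Of 5 fibroblast markers, Col1a1, Col1a2, Col3a1 and Lum were detected on no array.

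At 24 h, the transcript of the small heat shock protein Hspb8 was lower than at 15 h, as were 24 of 34 proteasome subunits, 16 of 24 NRF2 targets and 8 of 19 interferon-inducible genes, while 12 of 20 cholesterol synthesis genes, 9 of 22 voltage-gated channel genes and 7 of 25 synaptic vesicle genes were higher. Of 9706 genes tested, 1693 (17.4%) passed an adjusted p of 0.05 in limma's moderated test: 722 were higher (7.44%) and 971 were lower (10%) at 24 h. Each list count below is to be read beside these shares, and several lists lie near them. A change of 2-fold or more was called for 8 higher and 101 lower genes. The groups did not overlap for any called gene, beside 3670 genes (37.8%) of all tested whose groups did not overlap. Every called gene thereby moved the same way on all 3 slides, which follows from the lack of overlap and adds no further support. Every fit with a single array left out called fewer genes, from 769 to 1290, and each such fit also rests on fewer arrays. The number was 769 without replicate 2 of the 15 h group and 1112 without replicate 3 of that group. It was 910 without replicate 2 of the 24 h group. The split depended on the scaling, with 484 higher and 1370 lower genes when each array was centred on its median and 545 higher and 1460 lower genes in the authors' deposited ratio table.

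**Figure D1:**
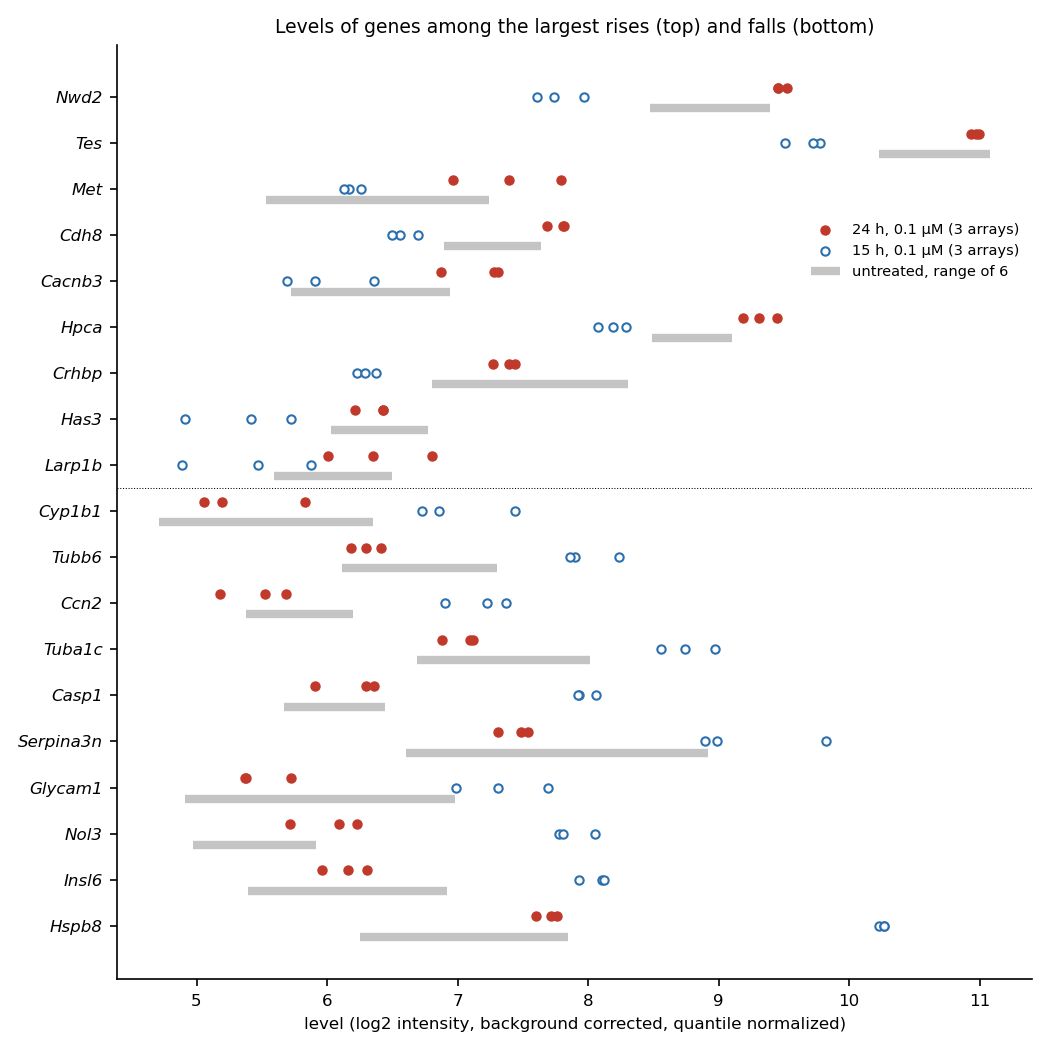
Log2 level (horizontal axis) of genes among the 10 largest called rises (top) and of the 10 largest called falls (bottom). Filled points are the 3 arrays at 24 h, open points the 3 arrays at 15 h, and grey bars the range of the 6 untreated arrays; Hspb8 stands at 7.60 to 7.76 at 24 h and at 10.23 to 10.27 at 15 h.

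Hspb8, a small heat shock protein that works with the co-chaperone Bag3 in selective autophagy of misfolded proteins, had the largest difference of all called genes. Its level was 7.60, 7.76 and 7.72 on the 3 arrays at 24 h, against 10.23, 10.27 and 10.27 on the 3 arrays at 15 h. The groups lie far apart. The untreated arrays lay at 6.26 to 6.85 but for replicate 2 at 7.84, so that the 24 h arrays were above the other 5. The difference was -2.56 ± 0.08 (SE), a ratio of 0.169, with an adjusted p of 2.42e-05.

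Next among the falls came Insl6, an insulin-like peptide gene, at -1.91 ± 0.11, and Nol3, an inhibitor of caspase activation, at -1.86 ± 0.15. Nol3 was read here by its brightest probe, and its other kept probes gave -0.09 and -0.49, neither of which passed the test. Glycam1, a secreted mucin-like gene, fell by 1.84 on the log2 scale, and Serpina3n, a secreted serine protease inhibitor of the acute phase, fell by 1.79. Casp1, the protease that matures interleukin-1β, had levels of 5.91, 6.30 and 6.36 at 24 h, against 7.93, 7.92 and 8.06 at 15 h. All 3 values at 24 h were below all values at 15 h, by 1.78 ± 0.13 on average (adjusted p = 0.00069). The remaining 4 of the 10 largest falls were the tubulins Tuba1c and Tubb6 (-1.73 and -1.70), the matricellular growth factor Ccn2 (-1.70) and the cytochrome Cyp1b1 (-1.65). Tubulin genes are near-identical in sequence, and whether each probe separates its gene from the others was not tested.

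Nwd2, which encodes a protein with NACHT and WD repeat domains, had the largest rise. It was at 9.45, 9.46 and 9.53 at 24 h, against 7.74, 7.61 and 7.97 at 15 h, and the untreated arrays lay at 8.47 to 9.40. The 24 h arrays were thus above the whole untreated range and the 15 h arrays below it. The difference was 1.71 ± 0.11, a ratio of 3.26 (adjusted p = 0.000646).

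Tes, a LIM domain protein of focal adhesions, was at 10.97, 10.94 and 10.99 at 24 h, against 9.78, 9.72 and 9.51 at 15 h, a difference of 1.30 ± 0.09. A further probe of Tes gave 1.68. Met, the hepatocyte growth factor receptor, rose by 1.20 ± 0.19, and Cdh8, a neuronal cadherin, rose by 1.18 ± 0.09, with 1.14 and 0.10 on its other probes. Hpca, the neuronal calcium sensor hippocalcin, was at 9.19, 9.31 and 9.45 at 24 h, against 8.08, 8.19 and 8.29 at 15 h (1.13 ± 0.10, adjusted p = 0.0011). Crhbp, which binds corticotropin-releasing hormone, rose by 1.07 ± 0.09. Larp1b, an RNA-binding protein, and Has3, a hyaluronan synthase, were also among the 10 largest rises, at 0.97 ± 0.28 and 1.01 ± 0.19, each detected on 2 of 3 arrays at 15 h. Their calls were less firm than the others: the adjusted p reached 0.0503 for Has3 without replicate 2 of the 24 h group and up to 0.120 for Larp1b with single arrays left out.

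Of 34 proteasome subunit transcripts tested, 24 fell at 24 h, none rose, and the median difference was -0.51, beside a median of -0.0053 over all genes tested and the 10% called lower. The falls took in the catalytic core ring, the alpha ring and the regulatory particle. Psmc4, an ATPase of the regulatory particle, was at 11.19, 11.15 and 11.24 at 24 h, against 12.14, 12.03 and 12.03 at 15 h. All 24 h arrays lay within the untreated range of 11.06 to 11.56, and all 15 h arrays lay above it. The difference was -0.87 ± 0.08 (adjusted p = 0.00113), while a dimmer probe of Psmc4 gave -0.50 and did not pass the test.

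Psmd4, the ubiquitin receptor of the regulatory particle, was at 11.56, 11.83 and 11.82 at 24 h, against 12.53 on each array at 15 h (-0.79 ± 0.10, adjusted p = 0.0031). Psmc5, another ATPase, fell by 0.84 (-0.74 on a further probe), and Psma5, of the alpha ring, by 1.09. Psmb5, the chymotrypsin-like catalytic subunit that lactacystin binds, differed by -0.43 ± 0.09 (adjusted p = 0.019), and its adjusted p reached 0.0643 with single arrays left out (replicates 2 and 3 of the 15 h group). Psmd14, the deubiquitinase of the lid, had the lowest mean difference (-1.10 ± 0.28, adjusted p = 0.0353), but its arrays were spread and the adjusted p reached 0.109 with single arrays left out. The 10 subunits not called ran from Psmc1 at 0.22 ± 1.21, whose replicate 2 was low in both groups, to Psmc6 at -0.61 ± 0.33. Among 21 genes of the ubiquitin system, 3 fell and 1 rose, with a median of -0.02, near the shares over all genes (10% lower, 7.44% higher). The falls were Vcp, the segregase that feeds substrates to the proteasome (-0.61), the autophagy receptor Sqstm1 (-0.57) and the conjugating enzyme Ube2l3 (-0.51). The activating enzyme Uba1 was higher by 0.56 (0.95 on a further probe), with an adjusted p of 0.0188 that reached 0.0645 with single arrays left out.

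**Figure D2:**
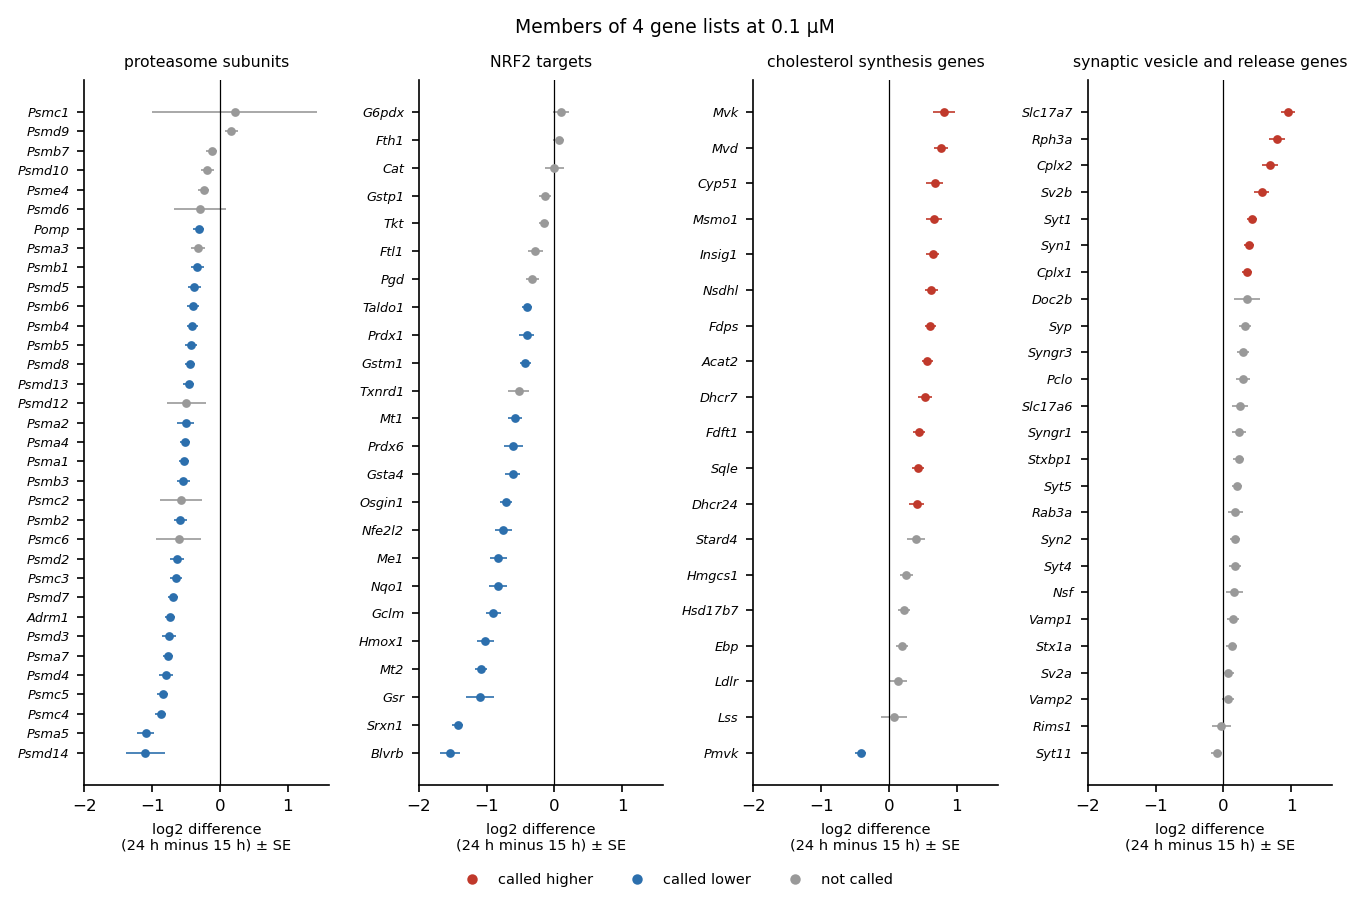
Log2 difference, 24 h minus 15 h, with its standard error, for tested members of 4 gene lists, 1 row per gene. Blue points were called lower, red points higher and grey points not called; proteasome and NRF2 genes lie mostly left of 0, cholesterol synthesis and synaptic vesicle genes mostly right of it.

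NRF2 targets include enzymes that make glutathione, reduce quinones and break down haem. Of 24 tested, 16 fell at 24 h and none rose, with a median of -0.60. Srxn1, the sulfiredoxin that restores oxidized peroxiredoxins, was at 8.47, 8.55 and 8.54 at 24 h, against 9.91, 9.92 and 10.02 at 15 h. The untreated arrays lay at 7.62 to 8.45 but for replicate 2 at 9.26, so that the 24 h arrays were just above the other 5 and the 15 h arrays above all 6. Its difference was -1.43 ± 0.08 (adjusted p = 0.00053), and its 2 other probes gave -1.57 and -1.28.

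Hmox1, which opens the haem ring, was at 8.04, 8.28 and 7.91 at 24 h, against 9.04, 8.98 and 9.27 at 15 h (-1.02 ± 0.12, adjusted p = 0.0031). Blvrb, a biliverdin reductase that acts after it, had the largest fall of the list at 1.54. The glutathione enzymes Gsr and Gclm were lower by 1.10 and 0.90, and Nqo1, a quinone reductase, was lower by 0.84. The transcript of NRF2 itself, Nfe2l2, fell by 0.75. The 8 members not called included the ferritin heavy chain (Fth1, 0.07 ± 0.08) and Txnrd1, a thioredoxin reductase (-0.53 ± 0.15).

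Metallothioneins and glutathione transferases, some of which stand in the NRF2 list too, gave 9 falls and no rise among 18 tested, with a median of -0.41. Gsta3, a transferase of the alpha class, was at 5.27, 5.44 and 5.65 at 24 h, against 6.79, 6.98 and 7.03 at 15 h (-1.48 ± 0.12, adjusted p = 0.000746). Gstm2 fell by 1.47, with -0.57 on a further probe, and the metallothionein Mt2 fell by 1.08. Members of the transferase family are alike in sequence, and cross-reading between them was not tested.

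NRF2 is known to bind the antioxidant response element, searched here as TGACNNNGC on both strands in the RefSeq promoters of build GRCm38.p6, from 250 bases before to 50 after each gene's start. Promoters were listed for 7684 of the genes tested. The element was in 16.6% of them, in 16.8% of the genes called lower and in 16.3% of those called higher, so its share was about the same in each set. It was in 9 of 20 NRF2 targets with a promoter, 4 of 10 clock genes, 4 of 13 cholesterol synthesis genes, 5 of 17 ATF4 targets, 7 of 28 proteasome subunits, 4 of 17 metallothioneins and glutathione transferases and 3 of 20 heat shock proteins and chaperones. The promoters of the NRF2 targets Srxn1 and Gclm, the transferase Gsta3 and the proteasome subunit Psmb5, all lower at 24 h and holding the element, are printed 5′ to 3′ on the gene's strand, with the match in capitals; they were chosen after their values were seen. Counted from the gene's start, the match begins at base 29 in Srxn1, -121 in Gsta3, -134 in Gclm and -47 in Psmb5, where negative positions lie before the start. On the printed strand it reads GCTAGGTCA in Srxn1, TGACATTGC in Gsta3, GCACCGTCA in Gclm and TGACGTCGC in Psmb5. A match is a description of the letters and not a bound site. Other members of these 3 lists that hold the element were not called: Pgd, Txnrd1, Gstm5, Psmc6, Psmd12, Psme4, G6pdx (0.10) and Psmd9 (0.17). Other motifs were searched as well and are not described.
Srxn1 (chr2:152105274-152105573, plus strand): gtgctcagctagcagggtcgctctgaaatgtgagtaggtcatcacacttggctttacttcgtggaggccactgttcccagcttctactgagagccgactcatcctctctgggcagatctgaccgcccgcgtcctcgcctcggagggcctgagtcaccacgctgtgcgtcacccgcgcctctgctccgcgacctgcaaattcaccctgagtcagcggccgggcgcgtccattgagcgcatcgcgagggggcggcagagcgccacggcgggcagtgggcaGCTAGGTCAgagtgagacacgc
Gsta3 (chr1:21240335-21240634, plus strand): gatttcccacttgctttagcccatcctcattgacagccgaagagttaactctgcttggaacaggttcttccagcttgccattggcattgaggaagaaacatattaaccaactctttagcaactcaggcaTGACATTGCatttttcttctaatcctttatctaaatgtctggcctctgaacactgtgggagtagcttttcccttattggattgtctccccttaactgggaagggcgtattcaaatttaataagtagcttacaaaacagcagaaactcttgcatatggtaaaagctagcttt
Gclm (chr3:122245307-122245606, plus strand): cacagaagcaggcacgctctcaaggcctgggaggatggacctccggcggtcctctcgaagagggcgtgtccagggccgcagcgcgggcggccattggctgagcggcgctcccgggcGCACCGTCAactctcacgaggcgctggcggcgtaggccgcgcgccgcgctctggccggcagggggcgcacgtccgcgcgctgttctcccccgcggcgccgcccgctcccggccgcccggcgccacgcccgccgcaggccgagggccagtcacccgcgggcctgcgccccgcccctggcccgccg
Psmb5 (chr14:54617946-54618245, minus strand): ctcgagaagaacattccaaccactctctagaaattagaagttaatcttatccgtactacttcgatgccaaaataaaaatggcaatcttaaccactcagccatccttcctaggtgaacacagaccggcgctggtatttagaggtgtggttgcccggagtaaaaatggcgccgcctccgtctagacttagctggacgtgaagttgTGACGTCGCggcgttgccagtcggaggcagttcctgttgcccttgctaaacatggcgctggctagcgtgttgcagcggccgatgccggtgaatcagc

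Among 26 heat shock proteins and chaperones tested, 5 fell and none rose, and the median was -0.07. The falls were Hspb8 and its partner Bag3 (-0.93), the small heat shock proteins Cryab (-1.05) and Hspb1, and the co-chaperone Dnajb2 (-0.89). Cryab, the alpha-B crystallin, was at 7.65, 7.99 and 7.86 at 24 h, against 8.79, 8.96 and 8.90 at 15 h. Hspb1 was detected on 0 of 3 arrays at 24 h and on 3 of 3 at 15 h, and was at least 2.04-fold lower at 24 h, taken against the lowest signal of detected probes (adjusted p = 0.0202, and up to 0.0584 with single 24 h arrays left out). Without any 1 of the 15 h arrays it was detected on too few arrays to be tested, which holds as well for the other genes below that no 24 h array detected. Such a gene passed the filter through the 15 h arrays alone, so its adjusted p is no separate support for the fall. The abundant chaperones did not pass the test: Hspa8 differed by 0.10 ± 0.14, with its other probes at -0.34 and 0.03, and Hsp90aa1 by -0.04 ± 0.24. None of the 8 subunits of the chaperonin TRiC was called, and Cct8 differed by -0.20 ± 0.18. Among 14 chaperones of the endoplasmic reticulum and its unfolded protein response, 2 were called higher. Herpud1, a membrane protein of protein degradation there, rose by 0.66 ± 0.11, and the cofactor Dnajb11 was higher by 0.28 with an adjusted p that reached 0.131 with single arrays left out.

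Targets of ATF4, the factor that is translated under amino acid or protein folding stress, gave 7 falls and 1 rise among 19 tested, with a median of -0.35. The count of falls was 4 without replicate 2 of the 15 h group and also without replicate 3 of that group. With detection on every array required, 5 of 16 fell and 1 rose. Nupr1, a stress-induced chromatin protein, was detected on 0 of 3 arrays at 24 h and on 3 of 3 at 15 h, and was at least 1.91-fold lower (adjusted p = 0.0037). The mitochondrial enzyme Shmt2 fell by 0.84, with -0.19 on a further probe, and the arginine transporter Slc7a3 fell by 0.63. Trib3, a pseudokinase that inhibits AKT, was lower by 0.93 with an adjusted p of 0.0253 that reached 0.0788 with replicate 2 or 3 of the 15 h group left out. Ddit3, the factor CHOP, differed by -0.38 ± 0.14 (adjusted p = 0.102), and Atf3 was detected on no array of either group and was not tested.

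Interferon-inducible and antigen presentation genes gave 8 falls and no rise among 19 tested, with a median of -0.26. Bst2, the antiviral membrane protein tetherin, was at 6.09, 6.25 and 6.34 at 24 h, against 7.85, 7.62 and 7.90 at 15 h, and untreated arrays lay at 5.21 to 5.89 but for replicate 2 at 6.38. The 24 h arrays were above 5 of the 6 untreated arrays and the 15 h arrays above all of them (-1.57 ± 0.11, adjusted p = 0.00069). The antiviral membrane proteins Ifitm3 and Ifitm1, close relatives in sequence, fell by 1.56 and 1.21. Tap2, a peptide transporter of antigen presentation, fell by 0.90, and the class I light chain B2m and the immunoproteasome subunit Psmb9 were lower by 0.74 and 0.73.

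Chemokines and inflammatory genes gave 6 falls and no rise among 14 tested, with a median of -0.28. Csf1, the growth factor of microglia and macrophages, was at 5.66, 5.96 and 5.91 at 24 h, against 7.27, 7.14 and 7.21 at 15 h (-1.36 ± 0.10, adjusted p = 0.00069). Tnfrsf12a, the receptor of the cytokine TWEAK, fell by 1.27. The adhesion molecule Icam1 was detected on 0 of 3 arrays at 24 h and on 3 of 3 at 15 h, and was at least 1.48-fold lower, with an adjusted p of 0.0409 that reached 0.111 with single 24 h arrays left out. Among 6 microglia genes tested, 3 were lower, of which the lysosomal protein Laptm5 (-0.61 ± 0.09) kept its call with any single array left out, while C1qb and C1qc did not (adjusted p up to 0.108 and 0.0939). The summed microglia markers given above, which include C1qb itself, were lower at 24 h. Of those 7 markers, 2 were detected on at least 3 of the 6 arrays. The part of these markers in the falls was not tested.

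**Figure D3:**
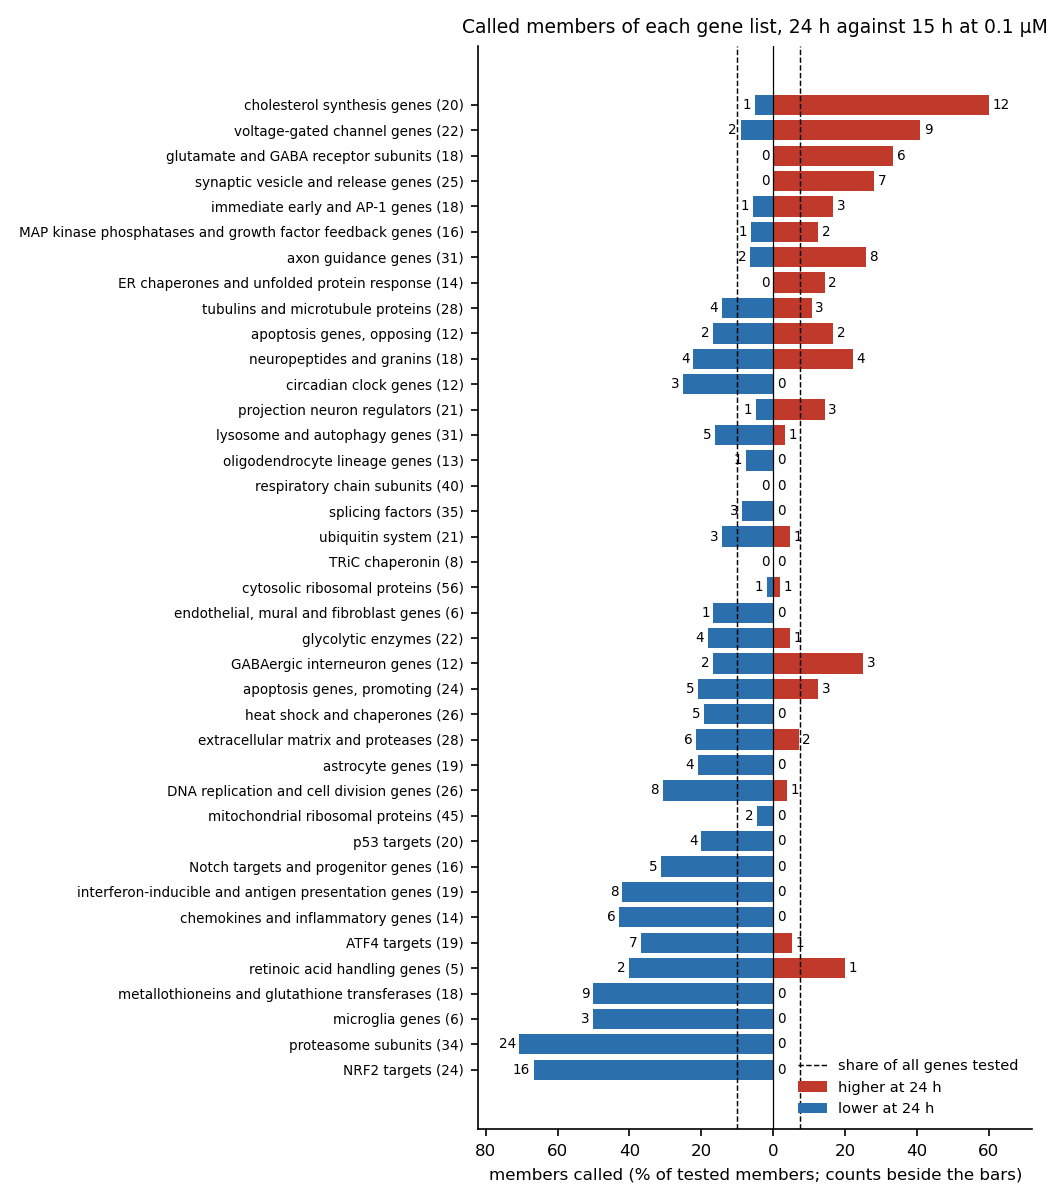
Share of the tested members of each of 39 gene lists that were called higher (red, right) or lower (blue, left) at 24 h, with counts beside the bars and the number tested in parentheses. Dashed lines mark the shares over all genes tested, 7.44% higher and 10% lower, and lists are ordered by their median difference.

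Of 20 transcripts of cholesterol synthesis tested, 12 rose at 24 h (7.44% of all genes did), 1 fell, and the median was 0.49. The genes that rose run from the mevalonate steps to the last sterol reductions. Mvd, which decarboxylates mevalonate pyrophosphate, was at 8.01, 7.75 and 7.94 at 24 h, against 7.09, 7.25 and 7.04 at 15 h (0.77 ± 0.10, adjusted p = 0.00396). Mvk, mevalonate kinase, was at 6.84, 6.89 and 6.80 at 24 h, against 5.65, 6.14 and 6.31 at 15 h, and untreated arrays lay at 6.68 to 7.60. Its difference was 0.81 ± 0.16 (adjusted p = 0.0155), with an adjusted p of 0.0538 without replicate 2 of the 24 h group. The demethylase Cyp51 and the oxidase Msmo1 rose by 0.67 and 0.66, Insig1, which holds back the sterol sensor, rose by 0.65, and Dhcr7 by 0.53. The 1 fall was Pmvk, phosphomevalonate kinase, at -0.42.

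Voltage-gated channel genes gave 9 rises and 2 falls among 22 tested, with a median of 0.37, and 5 rises without replicate 2 of the 24 h group. Cacnb3, an auxiliary calcium channel subunit, was at 7.28, 6.88 and 7.31 at 24 h, against 5.69, 6.36 and 5.91 at 15 h (1.17 ± 0.19, adjusted p = 0.00794), and a further probe gave 0.61. Kcnab2, an auxiliary potassium channel subunit, went the other way, at 8.99, 9.12 and 9.24 at 24 h, against 10.20, 10.22 and 10.29 at 15 h (-1.12 ± 0.09). Scn1a, a sodium channel, was lower by 0.84, with an adjusted p of 0.0301 that reached 0.09 with single arrays left out.

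Glutamate and GABA receptor genes and their scaffold gave 6 rises and no fall among 18 tested, with a median of 0.27. Gabbr1, a subunit of the metabotropic GABA receptor, rose by 0.69 ± 0.08, and the AMPA receptor subunit Gria1 rose by 0.66 ± 0.11 (0.50 on a further probe). Dlg4, the main scaffold of the postsynaptic density, was at 8.78, 8.79 and 8.68 at 24 h, against 8.15, 8.09 and 8.08 at 15 h (0.64 ± 0.08, adjusted p = 0.00297).

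Synaptic vesicle and release genes gave 7 rises and no fall among 25 tested, with a median of 0.23, and 4 rises without replicate 2 of the 15 h group. Slc17a7, the vesicular glutamate transporter of cortical excitatory neurons, was at 8.40, 8.17 and 8.38 at 24 h, against 7.26, 7.36 and 7.47 at 15 h. The untreated arrays lay at 7.22 to 8.24, holding all 3 arrays at 15 h and, through untreated replicate 1 alone, 1 of the 3 at 24 h (0.95 ± 0.10, adjusted p = 0.00172). The calcium-binding release protein Rph3a and the complexin Cplx2 rose by 0.79 and 0.68. The summed neuron markers given above, which include the vesicle protein Syt1 of this list, were higher at 24 h. The sums of projection neuron markers and of interneuron markers overlapped between the groups. In bulk RNA more cells of a type and more RNA per cell cannot be told apart.

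Axon guidance genes gave 8 rises and 2 falls among 31 tested, with a median of 0.18, but 5 rises and 4 falls with median centring and 6 rises and 5 falls in the authors' deposited ratio table. The number of rises was 3 to 5 without replicate 1 or 2 of the 15 h group or any replicate of the 24 h group. The guidance receptors Robo1 (0.69 ± 0.09) and Unc5c (0.65 ± 0.10) kept their call with any single array left out. Of the general neuron markers, Stmn2, a stathmin, was higher by 0.44 ± 0.09 and the vesicle calcium sensor Syt1 by 0.41 ± 0.07. Tubb3 and Map2 did not pass the test: Tubb3 differed by 0.31 ± 0.11 (adjusted p = 0.0923) and Map2 by 0.47 ± 0.20 (adjusted p = 0.142), with its other probes at 0.57 and -0.09.

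Among 21 regulators of cortical projection neurons, 3 were higher and 1 was lower, with a median of 0.04, beside 7.44% higher and 10% lower of all genes tested. The list kept no rise without replicate 1 of the 15 h group or replicate 2 of the 24 h group. Among 12 interneuron genes, 3 were higher and 2 lower, with a median of -0.06. Pvalb, the calcium buffer of fast-spiking interneurons, was detected on 2 of 3 arrays at 24 h and on 3 of 3 at 15 h and fell by 1.33 ± 0.11, and the peptide somatostatin (Sst) fell by 0.76 ± 0.12. The rises were the peptide gene Cck, given with the neuropeptides, the secreted neurexin ligand Nxph1 (0.47 ± 0.08) and Calb2, the calcium buffer calretinin (0.53 ± 0.10, with 0.80 on a further probe), whose adjusted p reached 0.0532 with single arrays left out. Gad1, the GABA-synthesizing enzyme, differed by -0.05 ± 0.09 (0.25 on a further probe).

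Neuropeptides and granins moved both ways, with 4 rises and 4 falls among 18 tested. Scg2, secretogranin II, was at 8.31, 8.34 and 8.25 at 24 h, against 9.53, 9.57 and 9.63 at 15 h (-1.27 ± 0.08, adjusted p = 0.000646). The peptide gene Cartpt fell by 1.01, but its untreated arrays lay at 5.57 to 7.86. That range holds every 15 h array and every 24 h array but replicate 2 (5.40). The call of Cartpt was lost in the fit of all 24 arrays. Chromogranin A (Chga) rose by 0.84 (0.46 on a further probe), and the peptides neurotensin (Nts) and cholecystokinin (Cck) rose by 0.87 and 0.78. Cck was at 10.10, 10.01 and 10.10 at 24 h, against 9.27, 9.37 and 9.22 at 15 h. Called members of this list thus went in opposite directions.

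Among 28 tubulins and microtubule proteins, 4 fell and 3 rose, with a median of 0.16, near the shares over all genes (10% lower, 7.44% higher). Tubb6, a beta tubulin that is low in neurons, was at 6.41, 6.18 and 6.30 at 24 h, against 8.24, 7.90 and 7.86 at 15 h, and untreated arrays lay at 6.52 to 7.30 but for replicate 3 at 6.12. The 15 h arrays were above all untreated arrays, and the 24 h arrays were below the other 5 (-1.70 ± 0.12, adjusted p = 0.00069). Map1a, a microtubule-associated protein of dendrites, fell by 0.83, while Stmn4, a neuronal stathmin that binds free tubulin, was higher by 0.67.

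Astrocyte genes gave 4 falls and no rise among 19 tested, with a median of -0.08. The intermediate filament Gfap was at 6.74, 6.51 and 6.77 at 24 h, against 7.58, 7.56 and 8.35 at 15 h (-1.16 ± 0.21, adjusted p = 0.0112). Vim, the filament vimentin, fell by 0.98 and the gap junction protein Gja1 by 0.49, while the membrane transporter Slc1a3 differed by -0.27 ± 0.09 and did not pass the test (adjusted p = 0.0877). The summed astrocyte markers, which include Gfap and Gja1 themselves, were lower at 24 h, and their part in these falls was not tested. Sox10, a factor of the oligodendrocyte lineage, differed by 0.10 ± 0.08, and of 13 genes of that lineage the tight junction protein Cldn11 alone was called (-1.20 ± 0.29), with an adjusted p of 0.0287 that reached 0.0847 with single arrays left out.

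Acta2, smooth muscle actin, was at 9.21, 9.61 and 9.58 at 24 h, against 10.85, 10.95 and 10.92 at 15 h (-1.44 ± 0.12, adjusted p = 0.000869), with -1.26 and -1.08 on its other probes. Among 28 extracellular matrix genes and proteases, 6 were lower and 2 higher. The count of lower genes was 2 to 3 without any 1 of the 15 h arrays. With detection on every array required, 3 of 21 were lower and 2 higher. Serpinh1, the collagen chaperone, fell by 1.15 ± 0.10, and Sparc, a matricellular protein, was detected on 0 of 3 arrays at 24 h and on 3 of 3 at 15 h and was at least 1.54-fold lower (adjusted p = 0.0106). The matrix proteoglycan Bcan, of neural tissue, rose by 0.59 ± 0.11, but a further probe gave 0.33 and did not pass the test. The summed fibroblast markers were 175 to 221 at 24 h and 162 to 184 at 15 h, and endothelial and mural markers 69.5 to 75.7 at 24 h and 62.1 to 67.3 at 15 h. Each of these sums rests on little, since 1 of 5 markers was detected on at least 3 of the 6 arrays in each list, with Cdh5 and Kdr of the endothelial markers on none.

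Genes of DNA replication and cell division gave 8 falls and 1 rise among 26 tested, with a median of -0.11, and 5 falls without replicate 3 of the 15 h group. The mitotic genes Ccnb1, Cdc20, Plk1 and Cdk1 fell by 0.92, 0.91, 0.81 and 0.72. Other probes gave -0.94 for Ccnb1 and -0.68 and -0.46 for Cdc20. The untreated arrays of Ccnb1 lay at 6.81 to 8.60, a range that holds every array at 24 h and at 15 h. Its call was lost in the fit of all 24 arrays. Among 16 Notch targets and progenitor genes, 5 were lower, 1 to 3 of them with any single array left out. Hes1, a repressor driven by Notch, was at 6.34, 6.48 and 6.41 at 24 h, against 7.34, 7.78 and 7.30 at 15 h (-1.06 ± 0.14, adjusted p = 0.00351). The summed progenitor markers, 2 of which were themselves called lower, were lower at 24 h, and their part was not tested.

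Cell death genes gave no common direction. Among 24 that promote apoptosis, 5 fell and 3 rose, and among 12 that oppose it, 2 fell and 2 rose. Of all genes tested, 10% were lower and 7.44% higher, and the counts in this paragraph are small. Beside Casp1, the death receptor Fas fell by 0.65 (detected on 2 of 3 arrays at 24 h) and Diablo, which frees caspases from their inhibitors, fell by 0.57, while Hrk, a neuronal BH3-only protein, was at 6.69, 6.64 and 6.64 at 24 h, against 6.01, 6.19 and 5.94 at 15 h (0.61 ± 0.09, adjusted p = 0.00575). Bcl2l1, which encodes BCL-XL, rose by 0.49 ± 0.08, with 0.42 and 0.14 on its other probes. Bcl2 differed by 0.11 ± 0.15 (its other probes by -0.44, -0.23 and -0.23), and Bcl2l11, which encodes BIM, by -0.30 ± 0.14; neither passed the test. Among 20 targets of p53, 4 were lower, and 2 without replicate 2 of the 15 h group or replicate 1 or 2 of the 24 h group, of which Gadd45a (-0.62) and Fas kept their calls with any single array left out, while Cdkn1a, which encodes the cell cycle inhibitor p21, did not pass by its brightest probe (-0.27 ± 0.11, adjusted p = 0.125) and passed by its other one (-0.41 ± 0.08, adjusted p = 0.0154).

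Immediate early genes gave 3 rises and 1 fall among 18 tested, beside 7.44% higher and 10% lower of all genes tested. Egr1, a zinc finger factor that follows neuronal activity, was at 10.28, 10.04 and 9.74 at 24 h, against 9.31, 9.11 and 9.13 at 15 h (0.84 ± 0.14, adjusted p = 0.00937). The stress-induced gene Ier3 went the other way, by -1.16 ± 0.12, and Fos, part of AP-1, differed by -0.51 ± 0.17 without passing the test (adjusted p = 0.0789). Among 16 genes of MAP kinase feedback, the phosphatase Dusp8 rose by 0.61, the phosphatase Dusp14 fell by 0.72 and the factor Etv4 was higher by 0.47, with an adjusted p that reached 0.0844 with single arrays left out. Of 12 clock genes, the output factor Dbp (-0.72 ± 0.09) was called lower whichever array was left out, while Rora lost its call with any array left out (adjusted p up to 0.0706) and Nr1d1 with any but replicate 1 of the 24 h group (adjusted p up to 0.113); a further probe of Nr1d1 gave 0.03.

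Of 40 respiratory chain subunits none was called, with a median of 0.0036, and of 56 cytosolic ribosomal protein genes 1 was higher and 1 lower, with a median of -0.03. Of 45 mitochondrial ribosomal protein genes, 2 were lower, Mrpl51 (-0.54, but 0.06 on a further probe) and Mrps34 (-0.43, with an adjusted p up to 0.137 with single arrays left out), but 9 were lower with median centring and 9 in the ratio table. Of 35 splicing factors 3 were lower, 1 of them with any single array left out. Among 22 glycolytic genes, 4 were lower and 1 higher, with 2 lower without replicate 1 of the 15 h group or replicate 2 or 3 of the 24 h group. The glucose transporter Slc2a1 was at 7.31, 7.37 and 7.39 at 24 h, against 8.22, 8.36 and 8.39 at 15 h (-0.97 ± 0.08, adjusted p = 0.000912), and the hexokinase Hk2 fell by 0.65. Of 31 lysosome and autophagy genes, 5 were lower and 1 higher, beside 10% lower and 7.44% higher of all genes tested. The falls included the protease Ctsd at -0.81 ± 0.13, Gabarapl1 of the autophagosome membrane at -0.63 ± 0.09 and Lamp2 of the lysosome membrane at -0.50 ± 0.09 (-0.43 on a further probe that did not pass). Of 5 genes of retinoic acid handling, 2 were lower and 1 higher, and none kept its call with every single array left out.

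The same step at 1 µM lactacystin shares no array with the step at 0.1 µM, and the difference between the steps was tested over 12 arrays. Of 10466 genes tested, 2690 (25.7%) had steps that differed: 1277 (12.2%) had a step at 0.1 µM above that at 1 µM and 1413 (13.5%) had one below it. At 1 µM alone, 986 genes (9.42%) were higher and 1133 (10.8%) lower at 24 h than at 15 h. Of the 970 genes lower at 0.1 µM and tested at both doses, 89 were also lower and 224 were higher at 1 µM. Of the 721 genes higher at 0.1 µM, 37 were also higher and 168 were lower at 1 µM. Across genes, the steps had a Pearson correlation of -0.204 and a Spearman correlation of -0.175, over 10466 genes that are not independent and whose arrays share slides.

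**Figure D4:**
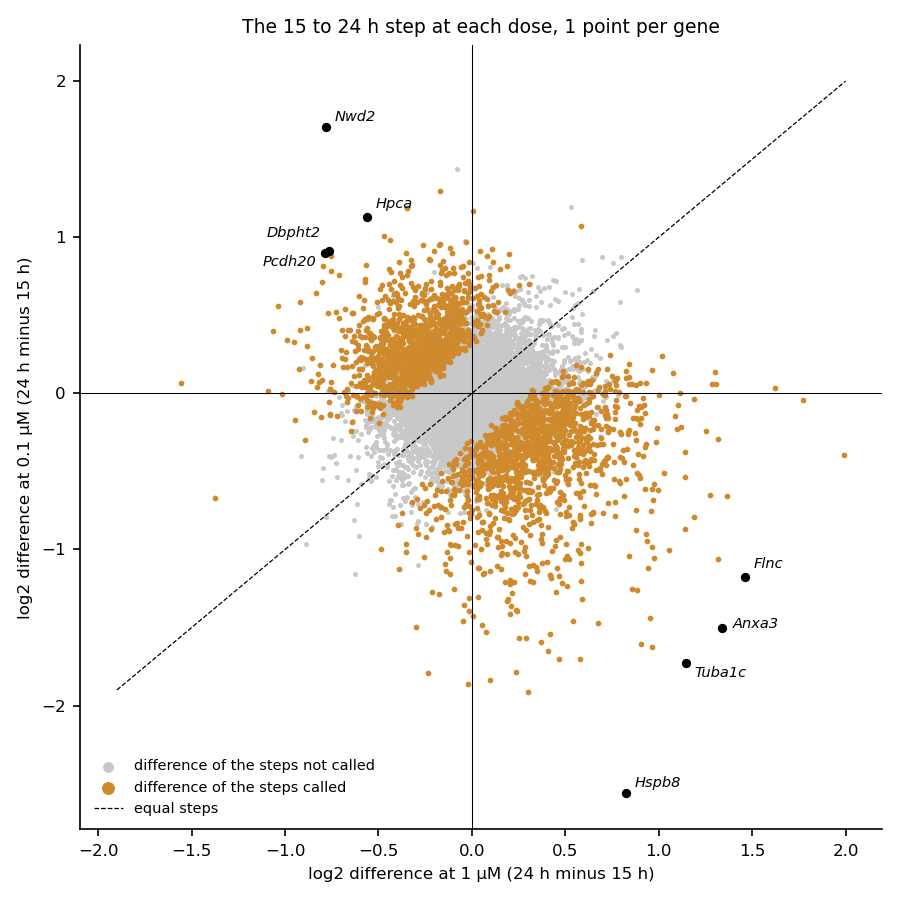
Log2 difference between 24 h and 15 h at 0.1 µM (vertical axis) against that at 1 µM (horizontal axis), 1 point per gene. Orange points are genes whose steps differed in the test over 12 arrays, the dashed line marks equal steps, and the 4 genes with the largest difference each way are named.

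Hspb8 had the largest difference between the steps, -3.39 ± 0.10 (adjusted p = 3.58e-09). At 1 µM it was at 11.14 to 11.22 at 24 h and at 10.31 to 10.40 at 15 h, a step of 0.83, against the step of -2.56 at 0.1 µM. Tuba1c (-2.87 ± 0.16), the calcium-dependent phospholipid-binding protein Anxa3 (-2.84 ± 0.18) and the actin crosslinker Flnc (-2.64 ± 0.25) came next. Each of these 4 genes was lower at 24 h at 0.1 µM and higher at 24 h at 1 µM. Anxa3 was at 7.36, 7.75 and 7.66 at 24 h of 0.1 µM, against 9.12, 8.91 and 9.24 at 15 h, while at 1 µM it was at 10.86 to 11.15 at 24 h and 9.56 to 9.82 at 15 h.

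In the other direction, Nwd2 had the largest difference, 2.48 ± 0.13 (adjusted p = 1.21e-06), with a step of 1.71 at 0.1 µM and of -0.78 at 1 µM. Hpca (1.69 ± 0.17), the protocadherin Pcdh20 (1.68 ± 0.10) and Dbpht2 (1.68 ± 0.17) followed, and all 4 were higher at 24 h at 0.1 µM and lower at 24 h at 1 µM. Of the lists, proteasome subunits had 23 members of 35 whose step at 0.1 µM was below that at 1 µM and none above it. NRF2 targets had 17 of 26 below and none above, with a median step of 0.26 at 1 µM. Cholesterol synthesis genes had 13 of 20 above and none below, and synaptic vesicle genes 17 of 26 above and none below, with median steps at 1 µM of -0.17 and -0.23.

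**Figure D5:**
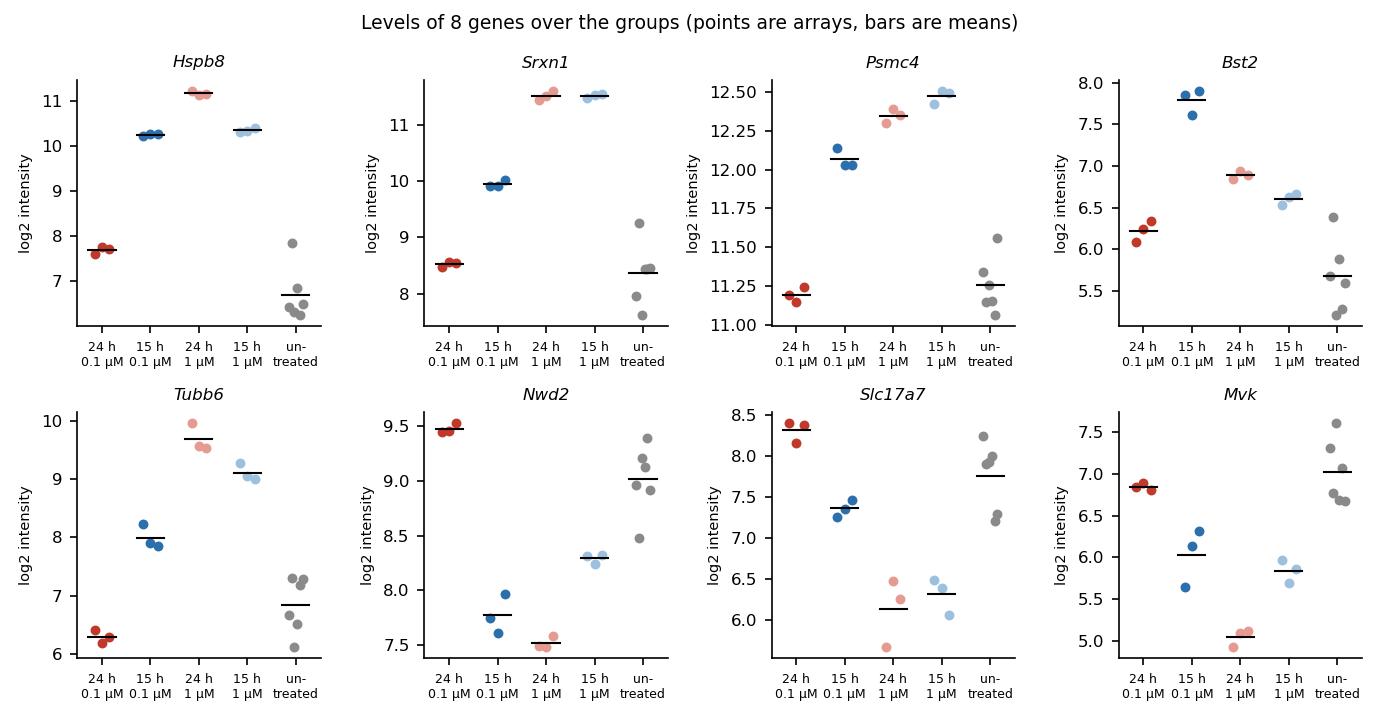
Log2 level of 8 genes on each array at 24 h and 15 h of 0.1 µM, at 24 h and 15 h of 1 µM, and in untreated cells; bars are group means, and the genes were chosen after their values were seen. Srxn1 lies at 8.47 to 8.55 at 24 h and 9.91 to 10.02 at 15 h of 0.1 µM, and at 11.44 to 11.59 and 11.47 to 11.54 at 24 h and 15 h of 1 µM.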

How the data were processed

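Intensities in the deposited non-normalized table are mean bead signals per probe; the scanner software's own table, written by BeadStudio 3.2.6 with normalization off per the file headers, adds a detection score, a fraction between 0 and 1. No source used here states whether background was subtracted. The deposited ratio table was found, by recomputing it, to be the signal over the array median and over the mean of the untreated arrays. 144 further columns of the scanner table (6 kinds) were not used.

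Signals were background corrected (nec with the detection p-values implied by the deposited score, offset 16), quantile normalized to the mean distribution of the 6 arrays and taken to log2 (limma 3.58.1, R 4.3.3). Probes with a score of at least 0.99 on 3 or more of the 6 arrays were kept (11976), and the brightest probe stood for its gene (9706 genes). The score was carried to probes from genes whose values are equal in both tables. Genes were compared with lmFit and eBayes, with Benjamini-Hochberg adjustment over all genes and calls at adjusted p under 0.05; the difference of the steps used 12 arrays and 10466 genes. A fold against a group in which no array detected the gene is a lower bound. The test was also run on simulated data, whose gene means and spreads were taken from these 6 arrays after the fit.

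Gene symbols were updated through RefSeq (20510 probes by accession, 1604 by symbol, 1696 by synonym, 578 as deposited, 225 without one). The probe identifiers of the deposited table do not belong to its rows (18 of 12396 agree), but its symbols do: of 14487 genes with 1 probe, 99.92% had values equal to the scanner table within 1e-06 on each array, once treated replicates 1, 2 and 3 were read as the scanner's 3, 1 and 2 of the same group. Replicate number marks the slide (per the labels' array positions); same-numbered arrays of the groups had correlated deviations of 0.458, 0.0951 and 0.383. The members and lists were chosen with earlier results of these data known. Some genes that this rule picks are not reported here. The rule takes the 10 largest rises and falls, up to 4 called members per list by size of change (for a list with none called, the largest), the 4 largest step differences each way, and 18 genes listed in the design; further members and the 8 genes of the level plot were chosen after their values were seen. Alternatives covered background, scaling, filter, probe choice, arrays in the fit, weights, variance model, replicate block, the ratio table and leaving out each array.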

Additional observations from a re-analysis of the deposited data

Results flagged for a closer look

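The step at 0.1 µM (24 h minus 15 h) differed from the step at 1 µM, in limma's test of that difference over 12 arrays with Benjamini-Hochberg adjustment, for 26 of the 28 genes looked at, with adjusted p between 3.58e-09 and 0.0176; Met and Larp1b did not pass. These genes were chosen for their change at 0.1 µM or for the difference itself, so the count describes the choice. The step at 0.1 µM lay below that at 1 µM, by the log2 difference in parentheses, for Hspb8 (-3.39), Tuba1c (-2.87), Anxa3 (-2.84), Flnc (-2.64), Tubb6 (-2.28), Insl6 (-2.21), Ccn2 (-2.17) and Cyp1b1 (-2.06), and likewise for Casp1 (-2.02), Glycam1 (-1.94), Bst2 (-1.86), Nol3 (-1.84), Serpina3n (-1.55), Srxn1 (-1.43) and Psmc4 (-0.75). It lay above that at 1 µM for Nwd2 (2.48), Hpca (1.69), Pcdh20 (1.68), Dbpht2 (1.68), Mvk (1.61), Cdh8 (1.53) and Has3 (1.47), and likewise for Tes (1.47), Cacnb3 (1.16), Slc17a7 (1.13) and Crhbp (0.49). Glycam1 was not detected on any array at 24 h or 15 h of 1 µM and Cyp1b1 on none at 15 h of 1 µM, Has3 was detected on 1 of 3 arrays at 24 h and 2 of 3 at 15 h, and Mvk on 2 of 3 at 24 h, so the differences given for Glycam1 and Cyp1b1 do not measure a size.

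In the 6 untreated arrays, 1 array stood apart from the other 5 for 4 of the same genes, with a gap to its nearest neighbour above Dixon's critical share of the range. Dbpht2 was at 6.03 in untreated replicate 6 and at 7.13 to 7.64 in the others. Hspb8 was at 7.84 in untreated replicate 2 and at 6.26 to 6.85 in the others. Glycam1 was at 6.98 in untreated replicate 2 and at 4.91 to 5.60 in the others. Serpina3n was at 8.92 in untreated replicate 2 and at 6.60 to 7.34 in the others. Chance alone marks about 1 in 20 groups for a single gene, but these genes share arrays. Untreated replicate 2 was also the array set furthest apart, below the critical share, for other genes looked at. It was the highest for Bst2, Srxn1, Casp1 and Tuba1c and the lowest for Nwd2, Tes and Cdh8. It therefore sets an end of several untreated ranges given above. The untreated arrays enter neither fit above.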

How the results depend on the processing

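The 1693 calls varied between 1322 and 2530 over the settings that kept all 6 arrays, and those with an array left out ran from 769 to 1290 (294 to 524 higher, 475 to 766 lower). Among the named genes, 149 were called, 93 kept their call in every alternative run and 101 in every fit with an array left out. None of them reversed. The higher calls numbered 1144 when all 18 treated arrays shared the estimate of spread, and the lower calls 1460 in the authors' deposited ratio table. The higher share was 42.6% in the main setting, 26.1% with median centring (484 higher, 1370 lower; median of all genes -0.07) and 27.2% in the ratio table. The cause was not tested. Of genes not called, Bcl2 ran from -0.0337 (without replicate 3 of the 24 h group) to 0.276 and Gad1 from -0.0951 to 0.00356 (without replicate 1 of the 15 h group) with single arrays left out, and Sox10 was at -0.000885 with median centring, each with a sign opposite to the main setting.

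With the replicate number, which marks the slide, as a block, 2263 genes were called (984 higher, 1279 lower) and all 149 named calls held; the pairing is uncertain, since replicate 2 of the 24 h group correlated best with replicate 3 of the 15 h group (0.104 against 0.0951). For the difference of the steps the block gave 3386 calls, single arrays left out gave 2153 to 2530, and the fit of all 24 arrays gave 1863, of which 849 had the step at 0.1 µM above. That fit lowered several list counts: ATF4 targets to 3 lower, cell division to 5 lower, glutamate and GABA receptors to 3 higher, axon guidance to 4 higher, neuropeptides to 1 lower, astrocyte genes to 2 lower and Notch targets to 3 lower. Over all alternatives, proteasome subunits had 16 to 26 lower, NRF2 targets 14 to 19 lower and cholesterol synthesis genes 9 to 15 higher. The small number of arrays limits the precision. Of the genes tested, 66 were detected on no array at 24 h, and 52 of these were called lower. A further 31 were detected on no array at 15 h, and 21 of these were called higher. Such genes passed the filter only through the group where they are high. Their calls, which are in the totals above, are therefore no separate support, and their difference is a bound.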
